A study of Mus musculus with 2 samples.

Results

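KLF and EGR transcription factors were described through 10 genes, the Krüppel-like factor genes Klf2, Klf3, Klf4, Klf6, Klf7, Klf9 and Klf10 and the early growth response genes Egr1, Egr2 and Egr3. Every probe annotated to these symbols was taken, which gave 13 of the 25697 probes on each bead array and 10 of the 16590 genes with a name. The RNA came from cells that were sorted for the green fluorescence of an S100A4-GFP transgene in BALB/c mice, S100A4 being a calcium-binding protein of fibroblasts and many leukocytes. One group was normal lung, and the other was metastatic lung of such mice bearing 4T1 tumours, a mouse mammary carcinoma that colonises the lung. Both groups carried the transgene, and the labels give neither the age of the mice, how long the tumours had grown nor whether animals were pooled. Each group had 1 array, so no test could be made, no p-value is given, and array and tissue state cannot be told apart.

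Krüppel-like factors bind GC-rich and CACCC sequences through zinc fingers at their C terminus, and their other end recruits activators or corepressors. Egr proteins bind a related GC-rich site with zinc fingers of the same type, and the NAB proteins restrain them. Klf2 and Klf4 are known as flow-induced factors of endothelium, and Klf2 also keeps T cells quiescent, whereas Klf4 serves monocyte differentiation. Egr1, Egr2, Egr3, Klf4, Klf6 and Klf10 belong to the genes that cells switch on within minutes to hours of a stimulus, and tissue dissociation is such a stimulus.

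Klf2, Klf4, Klf9 and Egr1 were each more than 2-fold lower on the metastatic-lung array than on the normal-lung array. Egr2 and Klf7 were lower by less than 2-fold, Klf6 and Klf10 differed by less than 1.2-fold, and Klf3 had nearly equal values. Egr3 was detected on neither array. No KLF or EGR gene was 2-fold higher in the metastatic-lung cells.

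A gene was counted as lower at a log2 ratio of -1 or less with a detection p below 0.01 on the normal-lung array, and as higher at a log2 ratio of 1 or more with detection on the metastatic-lung array. By this rule 4 of the 9 detected members were lower and 0 were higher. Of all 8128 genes detected on at least 1 array, 10.2% were lower and 5.88% were higher. The median log2 ratio of the 9 detected members was -0.57, beside 0.01 over all detected genes, and 8 of the 9 ratios were below 0, beside 49.0% of all detected genes. With 9 members of 2 related families these counts describe the members and carry no test.

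Several features of the libraries bear on every value below. The median signal was 72.2 intensity units on the normal-lung and 66.1 on the metastatic-lung array, and 42.6% and 40.9% of the probes were detected. S100a4, the gene behind the sort, was detected on both arrays with signals of 743 and 1122. Of 12 fibroblast markers Inmt, Pdgfra, Thy1, Dpt and Col3a1 were detected on both arrays, Mfap4, Col1a2 and Dcn on the normal-lung array only, and Col1a1, Pdgfrb, Lum and Tcf21 on neither. Of 16 endothelial markers both arrays detected 7, normal lung alone gave a further 6, and 3 were seen on neither. In such bulk RNA fewer cells of a type and less RNA per cell cannot be told apart.

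**Figure D1:**
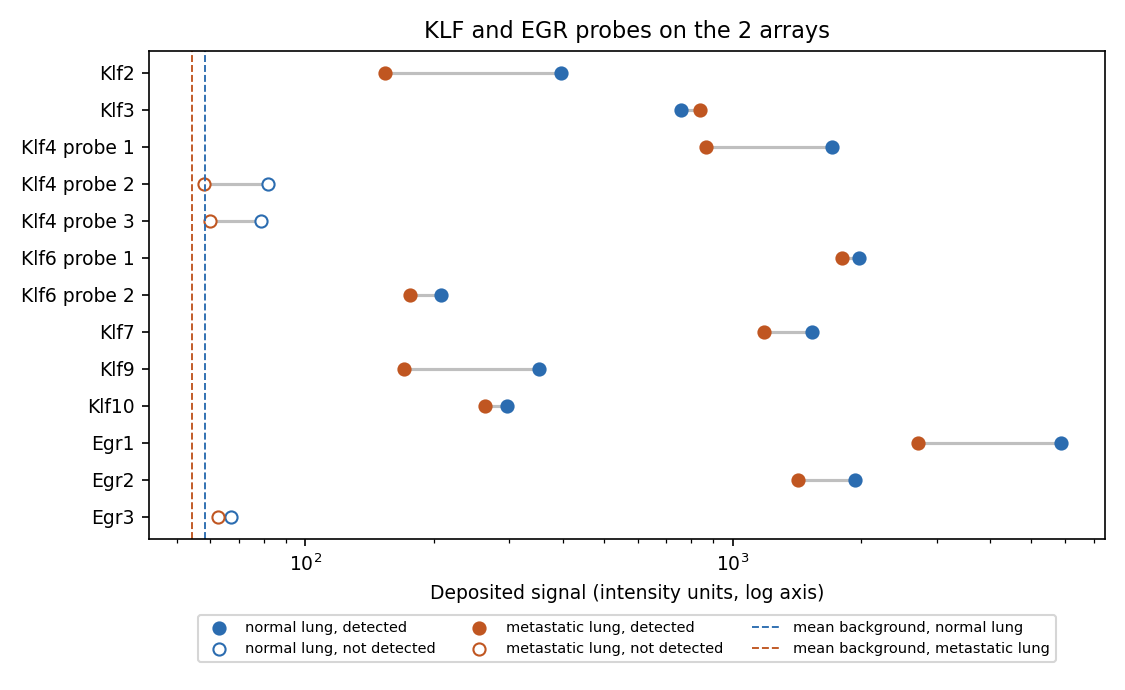
Deposited signal of each of the 13 KLF and EGR probes (log axis, intensity units) on the normal-lung (blue) and metastatic-lung (orange) array, joined by a grey line for each probe. Open circles are values with a detection p of 0.01 or more, and dashed lines are the estimated mean background of 58.3 and 54.5. Klf2, Klf9, Egr1 and the bright Klf4 probe have the longest lines to the left from normal to metastatic lung.

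Klf2, the endothelial and lymphocyte factor, had the lowest ratio of the members, except in the authors' processed values, where Klf2 and Egr1 were level at -1.30. Its single probe gave a signal of 397 in the normal-lung and 154 in the metastatic-lung cells, which left 339 and 99.2 units above the mean background. The normalized log2 values were 8.50 and 6.87, a log2 ratio of -1.62, or 3.08-fold lower. Among all detected genes 95.3% had a higher ratio than Klf2.

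Klf4, which maintains endothelial barrier genes and drives monocyte differentiation, had 3 probes. The brightest gave signals of 1704 and 864, a log2 ratio of -1.12 (2.17-fold lower), and 91.4% of detected genes had a higher ratio. The other Klf4 probes lay near background, with signals of 81.7 and 78.8 in normal lung and of 58.0 and 59.8 in metastatic lung. Their detection p-values of 0.0113 and 0.0125 on the normal-lung array were just outside the limit of 0.01, so that no fold is given, and on both of them the normal-lung signal was the higher. The Klf4 result thus rests on 1 probe.

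Klf9, a factor induced by glucocorticoid and thyroid hormone, had signals of 353 and 170. Its log2 ratio was -1.26 (2.40-fold lower), and 92.7% of detected genes had a higher ratio. The metastatic-lung signal stood 115 units above the mean background of that array, and the Klf9 and Klf2 ratios varied more with the removal of background than those of the brighter members (-1.05 for Klf9 and -1.35 for Klf2 without it).

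Egr1, a serum- and growth-factor-induced activator, had signals of 5873 and 2708 on its only probe. The normalized log2 values were 12.63 and 11.32, a ratio of -1.31 (2.48-fold lower), with 93.2% of detected genes above it. Egr2, a regulator of myelinating Schwann cells that is also induced in macrophages and T cells, had signals of 1934 and 1422. Its log2 ratio of -0.57 (1.49-fold lower) did not reach 2-fold, and 81.0% of detected genes had a higher ratio. Egr1 and Egr2 thus differed in the same direction with unequal sizes. Egr3, which restrains T cell activation together with Egr2, gave signals of 67.1 and 62.6 with detection p-values of 0.0952 and 0.102, and so has no fold.

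Klf7, a factor best known from developing neurons, had signals of 1530 and 1182 and a log2 ratio of -0.51 (1.42-fold lower). Klf6, an early induced gene of macrophages and injured endothelium, had 2 detected probes. The brighter gave 1976 and 1800 and a log2 ratio of -0.24, and the dimmer gave 208 and 176 and a log2 ratio of -0.25, so that probes of very different signal returned nearly the same ratio. Klf10, first described as a TGF-beta inducible early gene, had signals of 296 and 264 and a log2 ratio of -0.20 (1.15-fold lower). Klf3, a repressor that competes for CACCC sites and restrains fat cell differentiation, had signals of 755 and 838. Its log2 ratio of 0.05 was the only one above 0, and it was within 0.01 of 0 on the negative side in the authors' processed values.

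To give these ratios a technical scale, 1648 genes with 2 or more probes detected on both arrays were used. The ratios of their 2 brightest probes differed with an SD of 0.26 (log2) per probe. The ratios of Klf2, Klf4, Klf9, Egr1, Egr2 and Klf7 exceeded this SD in size, while those of Klf3, Klf6 and Klf10 lay inside it. The SD covers probe differences only, and the spread between animals, sorts or amplifications was not measured.

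**Figure D2:**
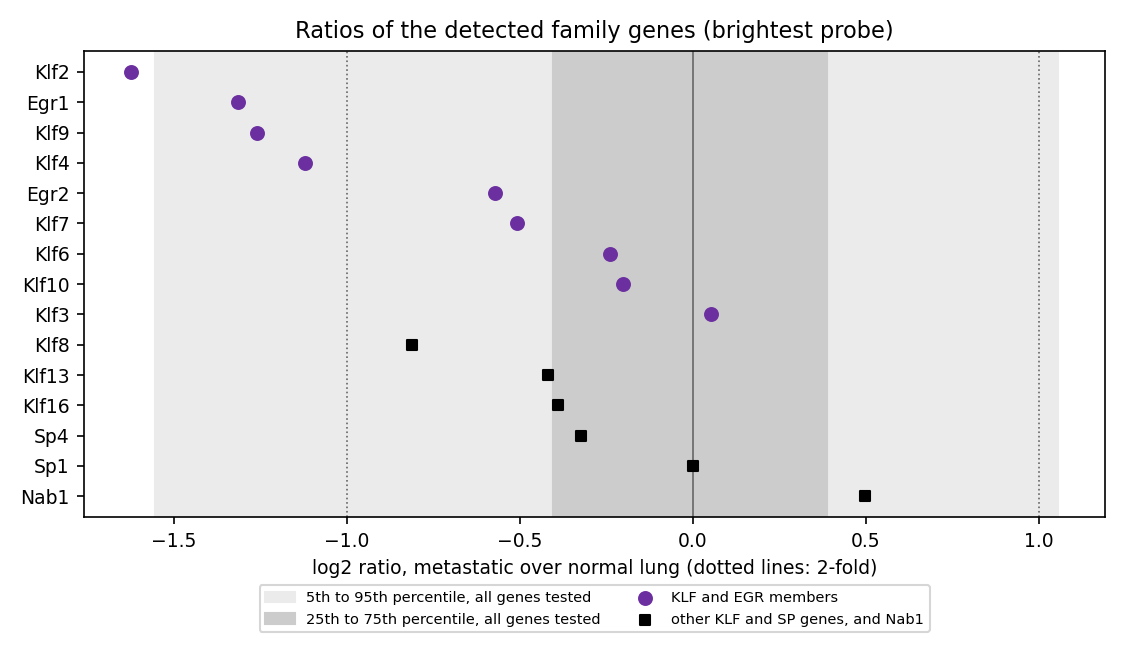
Log2 ratio, metastatic over normal lung, of the 9 detected KLF and EGR members (purple circles), and of the other KLF and SP genes and Nab1 detected on both arrays (black squares), each by its brightest probe. The dark and light grey bands span the 25th to 75th (-0.40 to 0.39) and the 5th to 95th percentile (-1.55 to 1.06) of all detected genes, and dotted lines mark 2-fold. Klf2 lies outside the light band, and Klf3 and Sp1 lie near 0.

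The windows just upstream of the annotated gene starts are shown for the 3 KLF genes that were lower and for Egr2, because each holds a site of the kinds marked below. In Klf4 and Klf9 the only marked site is TGACG, which 17.8% of all windows hold. The windows of Klf3, Klf6 and Klf7 hold none of the marked sites and are not shown. They are the 250 bases before the start in RefSeq's GRCm38.p6 annotation of the C57BL/6J genome, 5′ to 3′ on the gene's strand, whereas the mice were BALB/c. Capitals mark a CArG box (the site of serum response factor), a MEF2 site, or TGACG, the core of the cyclic AMP response element, on either strand. Klf2 covers chr8:72318812-72319061 on the plus strand, Klf4 chr4:55532476-55532725 on the minus strand, Klf9 chr19:23140976-23141225 on the plus strand and Egr2 chr10:67537619-67537868 on the plus strand.
Klf2: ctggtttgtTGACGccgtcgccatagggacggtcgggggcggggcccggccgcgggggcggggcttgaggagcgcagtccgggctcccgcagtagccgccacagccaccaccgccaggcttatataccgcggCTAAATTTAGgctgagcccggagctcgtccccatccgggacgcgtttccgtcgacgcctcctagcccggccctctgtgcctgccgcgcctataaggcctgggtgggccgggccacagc
Klf4: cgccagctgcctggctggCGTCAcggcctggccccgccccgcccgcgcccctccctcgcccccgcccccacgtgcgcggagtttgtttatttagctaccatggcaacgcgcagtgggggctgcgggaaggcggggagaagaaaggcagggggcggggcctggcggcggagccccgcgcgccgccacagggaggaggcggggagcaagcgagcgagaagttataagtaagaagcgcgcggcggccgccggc
Klf9: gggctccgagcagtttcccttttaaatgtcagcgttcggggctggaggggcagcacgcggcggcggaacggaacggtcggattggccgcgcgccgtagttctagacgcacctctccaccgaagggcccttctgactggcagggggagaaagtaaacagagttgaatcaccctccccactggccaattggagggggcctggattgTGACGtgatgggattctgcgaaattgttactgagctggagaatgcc
Egr2: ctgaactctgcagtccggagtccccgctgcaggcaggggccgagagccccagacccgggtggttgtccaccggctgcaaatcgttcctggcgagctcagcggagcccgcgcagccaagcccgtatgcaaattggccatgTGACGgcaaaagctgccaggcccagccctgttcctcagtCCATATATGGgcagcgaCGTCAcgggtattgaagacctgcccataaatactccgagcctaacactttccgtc

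Windows were used for 7 members, Klf2, Klf3, Klf4, Klf6, Klf7, Klf9 and Egr2, the last with 5 annotated starts, which makes 11 windows. Windows on chromosome 18, where Egr1 lies, were left out of the member search, and no window was available for Egr3 and Klf10. The counts below therefore say nothing of sites in these genes. TGACG was found in 6 of the 11 windows, those of Klf2, Klf4 and Klf9 and 3 of Egr2, and in 17.8% of 32851 windows of all genes. These 3 Egr2 windows overlap and hold the same TGACG sites, so that by gene TGACG was found for 4 of the 7. Whether a site goes with a ratio was not tested. In Klf2 it began 241 bases before the start, in Klf4 232 and in Klf9 46, and the printed Egr2 window held it at 111 and 55. A CArG box was found only for Egr2 among the 7 genes, at 72 bases before the printed start, and in 1.47% of all windows. A MEF2 site was found only for Klf2, at 118, and in 2.92% of all windows.

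Sites of the kind that these factors themselves bind were also counted. GGGCGG was found in 7 of the 11 windows of these genes (for 6 of the 7 genes) and in 32.7% of all windows. CACCC was found in 6 of the 11 windows, a share near the 52% of all windows, and for 5 of the 7 genes. The longer Egr site GCGGGGGCG was found in 3 of the 11, those of Klf2, Klf3 and Klf4, and in 2.57% of all windows. This site can share bases with the shorter GC box. TGANTCA, a pattern wider than the AP-1 site with C or G in the middle, was found for Klf9 only and in 6.75% of all windows. The Klf9 match reads TGAATCA and so is not that AP-1 site. All motifs were searched on both strands, and a match describes letters in the reference and not binding in these cells.

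**Figure D3:**
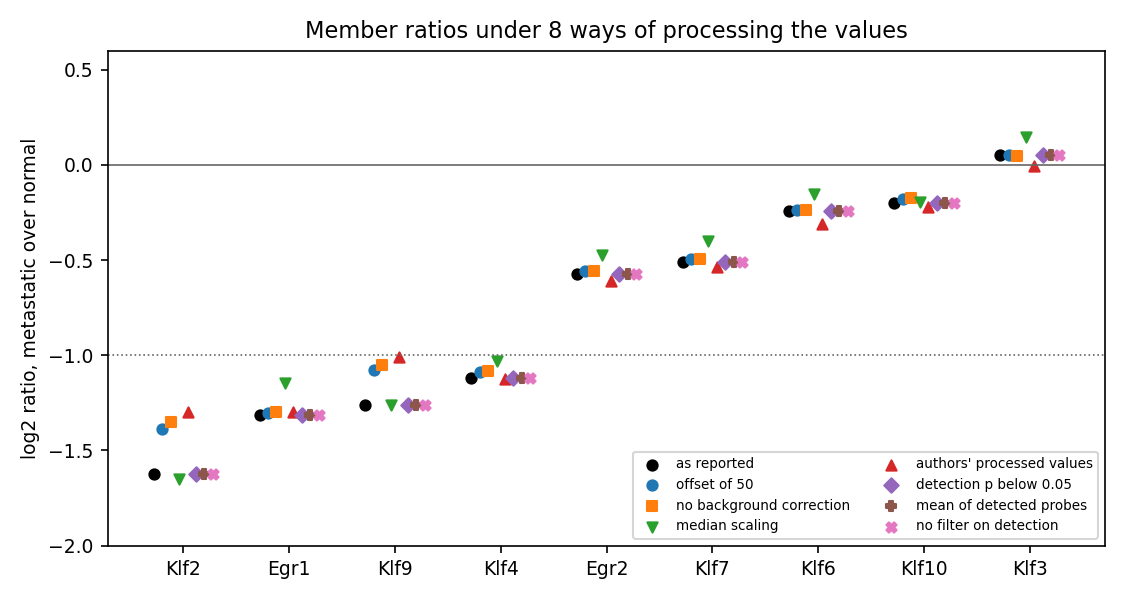
Log2 ratio, metastatic over normal lung, of the 9 detected members as reported (black) and under 7 alternative ways of processing the same values (colours and shapes). The dotted line marks 2-fold lower. Klf2, Egr1, Klf9 and Klf4 lie below it under each setting, and the other 5 members lie above it under each.

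Of 19 further KLF and SP genes 16 were on the array and 5 were detected, with a median log2 ratio of -0.39 and 0 genes 2-fold different either way. Klf8, a repressor linked to cell migration, had signals of 248 and 154 and the lowest ratio of the 5, -0.81 (1.76-fold lower). Klf13, which acts late in T cell activation, had a log2 ratio of -0.42, Klf16 of -0.39 and Sp4, a relative of Sp1 known from neurons, of -0.32. Sp1, the ubiquitous GC-box factor, had signals of 122 and 115 and a log2 ratio of -0.0007. Klf1, Klf5, Klf11, Klf12, Klf15 and Klf17 and the genes Sp5 to Sp9 were detected on neither array, and Egr4 was not detected either.

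Nab1, a corepressor that binds EGR proteins, had the opposite direction to Egr1. All 5 of its probes were detected on both arrays and had ratios above 0. The brightest gave 1143 and 1733, a log2 ratio of 0.50 (1.41-fold higher). The next gave 0.62, and the 3 dimmer probes 1.20, 1.16 and 0.91, so that the probes disagreed on whether Nab1 was 2-fold higher. By the brightest probe Nab1 is not counted. Nab2, the other corepressor and itself a target of EGR proteins, was detected on neither array. Wt1, a mesothelial factor with EGR-like zinc fingers, gave 113 units in normal lung and was not detected in metastatic lung, which makes it at least 1.69-fold lower.

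Immediate early genes, to which Egr1 and several KLF genes belong, went both ways. Of 33 listed genes 31 were on the array and 26 were detected, of which 5 were lower (4 with genes detected on 1 array at their bounds) and 3 higher, with a median log2 ratio of 0.06 (-0.02 over the 21 detected on both arrays). Rhob, a small GTPase gene, was 3.57-fold lower, and the matricellular gene Ccn2 was 3.14-fold lower. The stress factor gene Atf3 was 2.48-fold lower and the orphan nuclear receptor gene Nr4a1 2.23-fold lower. Ccn1 was detected in normal lung only and was at least 1.78-fold lower. In the other direction, the early response gene Ier3 was 3.32-fold higher with signals of 3150 and 11797. Nr4a2 was 2.99-fold higher, and Myc, detected in metastatic lung only, was at least 2.003-fold higher. Egr1 therefore stood with Atf3 and Nr4a1 in direction, and against Ier3 and Nr4a2. The genes named here are those of the list with the largest ratios. Among all 26 detected, 13 ratios were below 0 and 13 above 0.

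Genes known as targets of these factors were also set beside them. Of the EGR target genes 11 had a probe and 6 were detected, and the median log2 ratio was 0.18 (0.31 over the 5 detected on both arrays). The growth factor gene Pdgfb, detected in normal lung only, was at least 2.92-fold lower, and Pdgfa had a log2 ratio of -0.56, while the adhesion receptor gene Cd44 had 0.57 and the inhibitor of differentiation gene Id3 0.58. Of the target genes of Klf2 and Klf4, 9 had a probe and 8 were detected, of which 4 were lower and 0 higher, with a median log2 ratio of -1.28 (-1.21 with genes detected on 1 array at their bounds, and -0.47 over the 6 genes detected on both arrays). Tek, the angiopoietin receptor gene, was 8.31-fold lower, the sphingosine receptor gene S1pr1 at least 4.00-fold lower and the water channel gene Aqp1 3.57-fold lower. Edn1, the endothelin gene that Klf2 is known to repress, was at least 3.22-fold lower as well and is 1 of the 4. The count and the median thus mix induced and repressed targets and have no single expected direction. Thbd, the thrombomodulin gene and a classic target, had a log2 ratio of -0.73. Nos3, the endothelial nitric oxide synthase gene, had signals of 89.8 and 92.1 and a log2 ratio of 0.29. These Nos3 signals stood only 31.5 and 37.7 units above the mean background, and its dimmer probes were detected on neither array. Tek belongs to the endothelial markers too. The part of endothelial cells in the values of the other targets was not tested.

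Genes that respond to the hormone and cytokine inputs of Klf9 and Klf10 did not go one way. Of 7 glucocorticoid-induced genes detected, 1 was lower and 1 higher, with a median log2 ratio of -0.23. Ddit4, an inhibitor of mTOR signalling, was 2.17-fold lower and Tsc22d3, the glucocorticoid-induced leucine zipper gene, had a log2 ratio of -0.92, whereas Errfi1, a feedback inhibitor of EGF receptors, was 3.74-fold higher and Fkbp5 had a log2 ratio of 0.99. Of 6 TGF-beta early response genes detected, 2 were higher and 1 lower, with a median of 0.51. The corepressor genes Tgif1 and Skil were both 2.23-fold higher by their brightest probes. From brightest to dimmest the Tgif1 probes gave log2 ratios of 1.16, 0.51 and 1.23, and so disagreed on whether Tgif1 was 2-fold higher. Ccn2 was lower as given above, and Id3 had a log2 ratio of 0.58.

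Endothelial markers and most T and NK cell markers, of cell types in which Klf2 is known to act, were lower too, whereas monocyte and macrophage markers went both ways. Of 16 endothelial markers on the array 13 were detected and 12 were lower (11 with bounds), with a median log2 ratio of -3.05 (-2.82 with bounds). Their summed normalized signal was 5584 in normal and 563 in metastatic lung. Tmem100 was at least 13.5-fold lower, Robo4 11.7-fold, Ramp2 11.5-fold and Plvap at least 7.04-fold, and Cdh5, Tie1 and Eng were detected on neither array. Of 12 T and NK cell markers, all detected, 7 were lower (6 with bounds), with a median of -1.38 (-1.61 over the 8 detected on both arrays) and summed signals of 3172 and 1157. Gzma was 5.84-fold lower, Cd8b1 at least 5.32-fold, Cd3d 4.82-fold and Cd3e 3.76-fold. The part of these cell types in the Klf2 and Klf4 values was not tested.

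Other marker lists lay on both sides of the members. All 8 detected fibroblast markers were lower (7 with bounds), with summed signals of 2535 and 468 and a median of -1.77 with genes detected on 1 array at their bounds, led by Inmt (5.94-fold lower), Pdgfra (5.21-fold), Thy1 (4.31-fold) and Dpt (4.16-fold). All 3 detected B cell markers (median -1.72) and 4 of 7 dendritic cell markers (median -1.11) were lower. With bounds 1 of the B cell markers was at least 2-fold lower, and the median was -0.88. Of 8 monocyte and macrophage markers 4 were lower and 1 higher, with Cx3cr1 4.45-fold lower, Mrc1 3.46-fold lower, Siglecf 3.08-fold lower and Cd14 with a log2 ratio of 2.19. Their summed signals were nearly equal at 6997 and 6932. Of 6 epithelial and carcinoma markers 2 were lower (1 with bounds) and 0 higher, with a median of -0.76. Of 15 neutrophil and granulocyte precursor markers 10 were higher and 0 lower, with a median of 2.22 (2.06 with bounds, and 1.13 over the 11 detected on both arrays) and summed signals of 4885 and 10092. Mpo was at least 51.4-fold and Ctsg at least 17.3-fold higher, and Ltf and Camp had log2 ratios of 3.69 and 3.20. Of 7 heat shock genes 2 were higher, Hspa1a with a log2 ratio of 3.33 and Hsph1 with 2.09. The part of these cells and of the handling of the tissue in the KLF and EGR values was not tested.

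**Figure D4:**
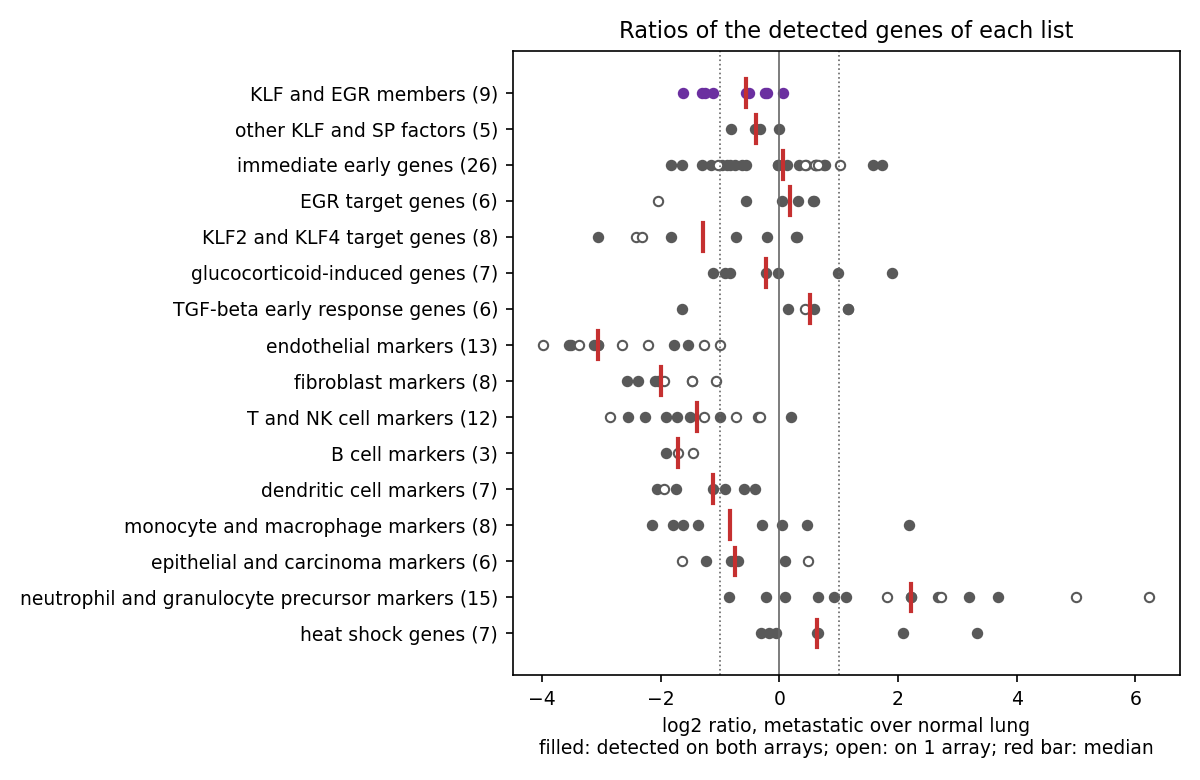
Log2 ratio, metastatic over normal lung, of each detected gene of each list (number of genes in brackets), with the list's median as a red bar. Filled circles were detected on both arrays and open circles on 1, and dotted lines mark 2-fold. The median of the KLF and EGR members (purple, -0.57) lies between those of the endothelial markers (-3.05) and the immediate early genes (0.06). Medians of several other lists lie there too, among them the epithelial and carcinoma markers (-0.76) and the other KLF and SP factors (-0.39). The member values themselves lie inside the range of the immediate early genes, and also inside those of other lists, such as the T and NK cell markers.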

How the data were processed

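Per the labels, total RNA of the sorted cells was purified on Qiagen RNeasy Plus Micro columns, and NuGEN WT-Ovation Pico reagents turned it into biotinylated cRNA. The authors deposited probe intensity values without normalization, each with a detection p-value, per the file headers, and BeadStudio is named in the submitters' processing notes. A further deposited table of intensity values was a straight-line rescaling of each array (slopes 1.08 and 0.942, constants 9.31 and 33.8, medians 87.2 and 96.0). The sources used here do not say how it was made, and it served as an alternative only.

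Intensities were background-corrected from the detection p-values (normexp, offset 16), quantile-normalized and taken to log2 in limma 3.58.1 (R 4.3.3), and the procedure was tested on simulated data. In that simulation fold changes were set and checked only for probes well above background in normal lung, so dim probes were not covered. Tables and plots used Python 3.11.15, pandas 2.3.3, numpy 2.4.6 and matplotlib 3.10.9. Ratios include the offset, which understates those of dim genes. Of 25697 probes 23978 had 1 gene symbol (platform annotation of 2016), 0 had several and 1719 had none. Of the named probes 23962 were matched to RefSeq by gene identifier and 9 by accession, and 7 kept their symbol. A gene was represented by its brightest probe. A gene detected on 1 array is given as "at least N-fold" against the higher of its own dim value and the lowest detected value of that array (log2 5.24 and 5.36). Levels of different probes were not compared. The text names all members, every detected KLF, SP, EGR and NAB gene, and up to 8 immediate early genes and up to 4 genes of each other list with the largest ratios. A few others (among them Pdgfa, Thbd, Nos3, Id3 and undetected markers) were named after their values were seen. The members and the 16 lists were chosen with earlier results of these data known. With 1 array per group the number of arrays limits the precision, and 7 alternatives were run.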

Additional observations from a re-analysis of the deposited data

How the results depend on the processing

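The counts of 4 lower and 0 higher members were the same under all 7 alternatives: an offset of 50, no background correction, scaling to the median, the authors' processed values, a detection p below 0.05, the mean of detected probes, and no filter on detection, which adds Egr3. The median of the members ranged from -0.61 to -0.47. Klf2 ranged from -1.65 to -1.30, Egr1 from -1.31 to -1.15, Klf4 from -1.13 to -1.03 and Klf9 from -1.26 to -1.01, so that Klf9 and Klf4 came close to the 2-fold line. Of 63 single member values 2 moved by more than the probe SD of 0.26, both of Klf2 (-1.35 without background correction and -1.30 in the authors' processed values). Klf3 had -0.0032 in the latter, and no other member changed sign. Of 133 list medians 32 moved by more than that SD, and the median of the immediate early genes changed sign once, to -0.02 at the lowest. The endothelial median ranged from -3.04 to -1.93 and that of the Klf2 and Klf4 targets from -1.47 to -0.73. No paired analysis was possible because each group has 1 array. Signal over background limits Klf2 and Klf9 most among the detected members.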
